A study of Homo sapiens with 36 samples.

Results

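The miRNAs described here are the mature products of hairpins that lie at imprinted loci other than the large cluster at 14q32. They were chosen by name, with earlier results of these data known: miR-335 (MEST), miR-483 (IGF2), miR-675 (H19) and miR-296 (the GNAS region), with the 5p and 3p arm of each. All 8 names were found among the 1508 mature miRNAs listed, each in a row of its own. Of the 8, 4 had enough counts to be tested, both arms of miR-335 and both arms of miR-296. The arms of miR-483 and miR-675 were too sparse and are given by their counts.

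WI-38 cells are normal human fibroblasts, and their small RNA gave 36 libraries, 2 biological replicates for each of 18 conditions. Ctrl were young proliferating cells without treatment. PMD-Sen cells, in which senescence follows plasma membrane damage, received the detergent SDS, and DDR-Sen cells, in which it follows DNA damage, received doxorubicin (DXR). Both kinds were collected on the day the agent was removed (D0) and then on D1 to D4, D6, D8 and D16. RS cells had reached replicative senescence by serial passage. All libraries came from this one cell strain.

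An imprinted locus is expressed mainly or only from the chromosome inherited from 1 of the parents, and many such loci govern growth. MEST and IGF2 are expressed from the paternal copy and H19 from the maternal copy, while the GNAS region holds transcripts of either origin. A hairpin is cut into a 5p and a 3p arm, and the arm that is loaded into an Argonaute protein represses mRNAs that pair with its seed, bases 2 to 8. The H19 hairpin is released mostly in fetal tissue and placenta, and H19 itself is a long noncoding RNA.

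The sequences below give the mature arms and their seeds. Whether reads of similar miRNAs could be told apart over their full length was not tested. They are RefSeq entries on GRCh38.p14, written 5′ to 3′, with the seed in capitals. The entries used held 6 of the 8 arms and none of the miR-483 arms.

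hsa-miR-335-5p: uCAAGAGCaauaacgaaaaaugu
hsa-miR-335-3p: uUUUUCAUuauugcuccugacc
hsa-miR-675-5p: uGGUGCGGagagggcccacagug
hsa-miR-675-3p: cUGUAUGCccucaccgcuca
hsa-miR-296-5p: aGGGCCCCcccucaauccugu
hsa-miR-296-3p: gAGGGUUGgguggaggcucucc

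No seed was shared between these 6 arms. Among 2370 human mature sequences of the reference, 1 other (miR-4466) carried the seed of miR-675-5p, and 0 others carried the seed of either miR-335 arm or either miR-296 arm. The miR-335 arms were rich in A and U, with a GC content of 30.4% (5p) and 36.4% (3p), whereas the miR-296 arms had 66.7% and 68.2% and the miR-675 arms 69.6% and 60%. The miR-335 hairpin, on which most of the values below rest, is shown with both mature arms in capitals.

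MIR335: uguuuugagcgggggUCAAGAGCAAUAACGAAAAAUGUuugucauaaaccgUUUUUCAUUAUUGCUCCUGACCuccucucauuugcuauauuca

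MIR335 lies on the plus strand at chr7:130496111-130496204, inside an intron of MEST in all 13 of the MEST transcripts that span it. An antisense long noncoding RNA (ENSG00000270823) covers the same bases with an exon on the minus strand. MIR675 lies at chr11:1996759-1996831 on the minus strand within H19, where it overlaps an exon in 13 of 28 spanning transcripts and an intron of the canonical one. MIR296 lies at chr20:58817615-58817694 on the minus strand, in an exon of a long noncoding RNA (ENSG00000268649), 1224 nt from GNAS-AS1 and 22024 nt from GNAS. These annotations are from GENCODE on GRCh38.

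The totals of the libraries ran from 81668 to 1933435 counts and rose along the PMD-Sen series, in which the D16 replicates differed 4.39-fold. Levels are given in CPM, the usual scaling of counts to library size, here to the TMM-scaled total, and differences as log2 fold changes with their standard error (SE) from edgeR's quasi-likelihood test over 360 miRNAs. Against Ctrl, a miRNA was called upregulated or downregulated at an unadjusted p below 0.05 and a log2 fold change beyond 1, the thresholds of the study's methods. Adjusted p values are Benjamini-Hochberg values over all miRNAs of the test. The fibroblast miRNAs miR-21-5p (37300 to 103148 CPM), miR-143-3p, miR-145-5p, miR-199a-5p and miR-214-3p were present in every library, and miR-10b-5p reached at most 31.4 CPM and was at 0 in 4 libraries. Epithelial markers summed to 14.6 to 163 CPM, and the liver miRNA miR-122-5p had 6.44 to 264 CPM. Markers of blood, neural and pluripotent cells summed to at most 27.4 CPM. The chi-square between the replicates was highest in RS, at 95.3 per degree of freedom. It is computed on counts and grows with library depth, so it does not rank the conditions by spread. RS results are given with each RS library left out.

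The 4 hairpins were present at very different levels. Over all 36 libraries, miR-335-5p had 16822 counts and miR-335-3p had 2824, miR-296-3p had 649 and miR-296-5p had 179, and miR-483-3p had 82 and miR-483-5p had 41. miR-675-5p and miR-675-3p had 1 count each. The MEST hairpin was thus the only one of the 4 with an arm at 374 CPM or more in every library.

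**Figure D1:**
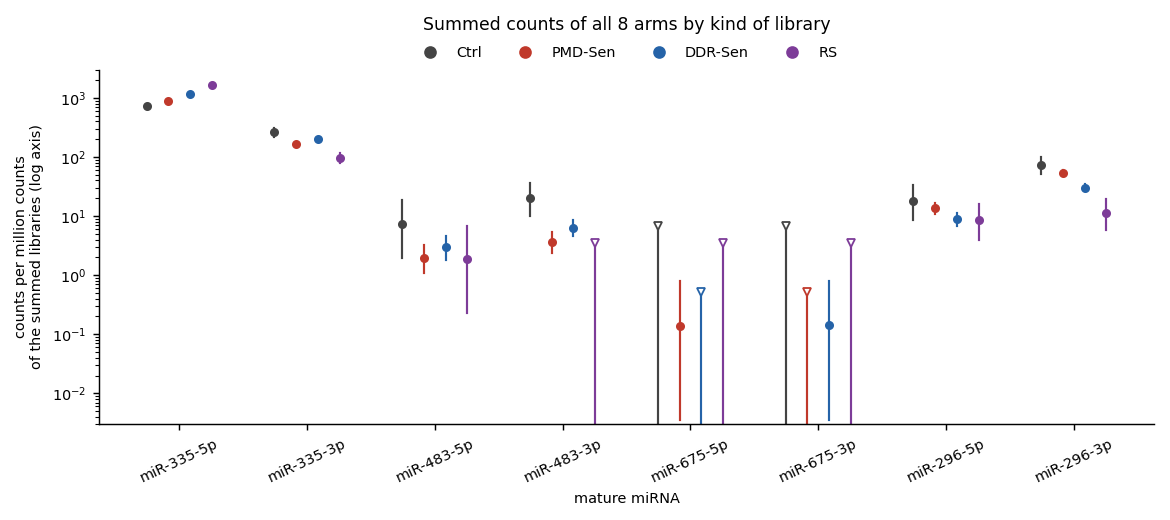
Counts of each of the 8 arms as CPM of the summed raw totals of the Ctrl, PMD-Sen, DDR-Sen and RS libraries, on a log axis, with exact 95% Poisson intervals as vertical lines. Open triangles mark the upper limit where no count was found, as for miR-483-3p in RS. miR-335-5p lies highest in each kind of library, from 721 CPM in Ctrl to 1627 in RS.

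miR-335-5p is the more abundant arm of the MEST hairpin and has been studied mostly in stem cells of the mesenchyme and in cancer cells. It was higher in DDR-Sen than in Ctrl from the day the drug was removed. The Ctrl libraries had 636 and 712 CPM. The 16 DDR-Sen libraries ranged from 946 to 1686 CPM with a median of 1207, so that every one of them lay above both Ctrl libraries. Of the 360 miRNAs tested, 5.28% were separated from Ctrl in this direction. The log2 fold change was 0.90 (SE 0.32) at D0, 0.82 (SE 0.31) at D1 and 0.66 (SE 0.32, the lowest) at D4. The adjusted p by edgeR on these days were 0.377, 0.254 and 0.225. At D16 the libraries had 1164 and 1686 CPM, the log2 fold change was 1.08 (SE 0.31) and edgeR gave an adjusted p of 0.0117. Only D16 passed both thresholds, although with every library thinned to the smallest total D0 passed too (1.03, adjusted p = 0.328). The D16 call rested on single libraries: the value was 0.70 without DDR-Sen replicate 2 and 0.97 without Ctrl replicate 1, and the call was lost in both cases.

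In PMD-Sen the same arm began at or below the Ctrl level and climbed. The libraries had 515 and 591 CPM at D0, 641 and 415 at D1 and 496 and 374 at D2, the lowest level of all conditions. The following days gave 702 and 542 (D3), 809 and 620 (D4), 930 and 686 (D6) and 942 and 821 (D8). At D16 they reached 1247 and 1004 CPM, inside the range of the DDR-Sen libraries. The log2 fold change against Ctrl went from -0.62 (SE 0.33) at D2 to 0.74 (SE 0.31) at D16, and at none of the 8 time points did it pass both thresholds.

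The rise within PMD-Sen was tested without the Ctrl libraries, as D8 and D16 (late) against D0 and D1 (early), and differences were called at an adjusted p below 0.05, which 31.9% of the 360 miRNAs reached in PMD-Sen (25.3% in DDR-Sen). The 4 early libraries had 415 to 641 CPM and the 4 late ones 821 to 1247 CPM, and the groups did not overlap. This separation, in the same direction, was found for 13.9% of the 360 miRNAs. The log2 difference was 0.88 (SE 0.23), with an adjusted p of 0.00486 by edgeR. The call was lost without PMD-Sen replicate 1, although the difference remained 0.88. In DDR-Sen the late and early libraries overlapped, at 1135 to 1686 and 946 to 1424 CPM, and the log2 difference was 0.11 (SE 0.22, adjusted p = 0.745). The difference between the changes of the series was 0.77 (SE 0.32), which did not pass (adjusted p = 0.110).

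**Figure D2:**
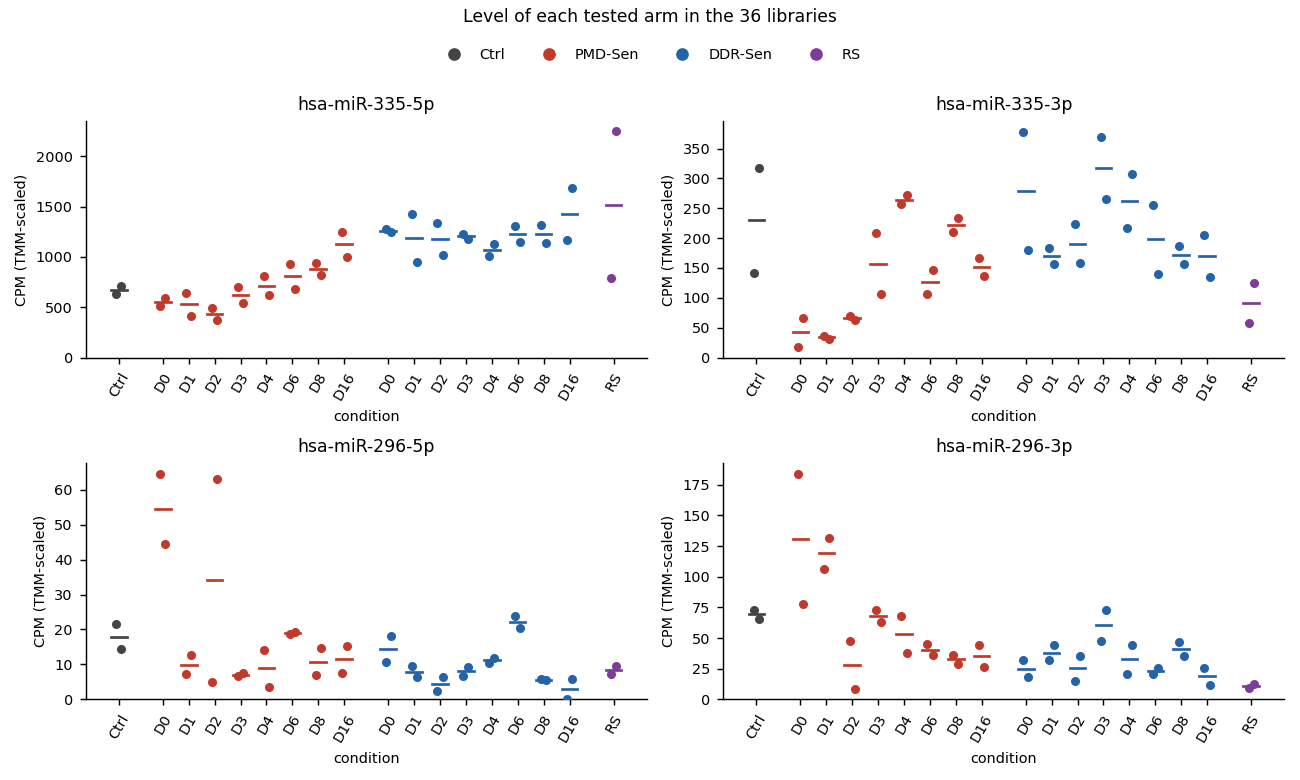
Level in CPM (linear axes starting at 0, a separate scale for each panel) of the 4 tested arms in each library, in order of condition, with a bar at the mean of the 2 replicates. The mean of miR-335-5p climbs through PMD-Sen from 435 CPM at D2 to 1126 CPM at D16 while the DDR-Sen libraries stay between 946 and 1686 CPM, and miR-335-3p is at or below 70.1 CPM in the 6 PMD-Sen libraries of D0 to D2.

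RS had the highest mean of miR-335-5p but also the widest spread, 1521 CPM (SD 1037, n = 2). The libraries had 787 and 2254 CPM, both above Ctrl, as were both RS libraries for 28.1% of the 360 miRNAs. The log2 fold change was 1.18 (SE 0.31), an upregulated call with an adjusted p of 0.00551 by edgeR. It was 0.18 without RS replicate 2 and 1.85 without RS replicate 1, so the call rested on a single library. When the 18 conditions were ordered by their mean, 1 of the 17 pairs of neighbours did not overlap, DDR-Sen D4 (1006 and 1124 CPM) above PMD-Sen D8.

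miR-335-3p, the less abundant arm of the same hairpin, took another course. It was low in PMD-Sen right after SDS and higher again from D3 on. The Ctrl libraries themselves differed, at 142 and 317 CPM. The PMD-Sen libraries had 18.4 and 66.9 CPM at D0, 36.6 and 31.4 at D1 and 70.1 and 63.1 at D2. All 6 lay below both Ctrl libraries, as was the case for 7.22% of the 360 miRNAs, and they rest on 2 to 28 counts each. The other 10 PMD-Sen libraries, of D3 to D16, ranged from 106 to 272 CPM.

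miR-335-3p was called downregulated at D0, D1 and D2 of PMD-Sen. The log2 fold changes were -2.51 (SE 0.61) at D0, -2.75 (SE 0.54) at D1 and -1.80 (SE 0.46) at D2, with adjusted p of 0.0533, 0.00300 and 0.0294 by edgeR. With every library thinned to the smallest total, the calls held at the unadjusted threshold, with values of -1.56, -2.26 and -2.31. Their adjusted p by edgeR were then 0.209, 0.0780 and 0.0509, so none of the 3 passed adjustment. With a replicate left out, the value was -3.70 to -1.82 at D0 and -3.33 to -2.10 at D1, and both calls held at the unadjusted threshold. The D2 call was lost without Ctrl replicate 2, the library with the higher level (-1.11). From D3 on the values lay between -0.89 (D6) and 0.18 (D4), with no further call.

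Within PMD-Sen, the late libraries had 136 to 234 CPM of miR-335-3p and the early ones 18.4 to 66.9 CPM, without overlap. The same upward separation was found for 13.9% of the 360 miRNAs. The log2 difference was 2.29 (SE 0.40), with an adjusted p of 9.20e-05 by edgeR. It was 2.26 at equal totals. In DDR-Sen the arm showed no such course, with 134 to 205 CPM in the late and 157 to 378 CPM in the early libraries and a log2 difference of -0.36 (SE 0.29, adjusted p = 0.389). The test of the difference between the series, added after the data were seen, gave 2.65 (SE 0.50, adjusted p = 0.00360). Of the 360 miRNAs, 9.44% passed this test, and miR-335-3p was the 1 called of the 4 tested here.

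**Figure D3:**
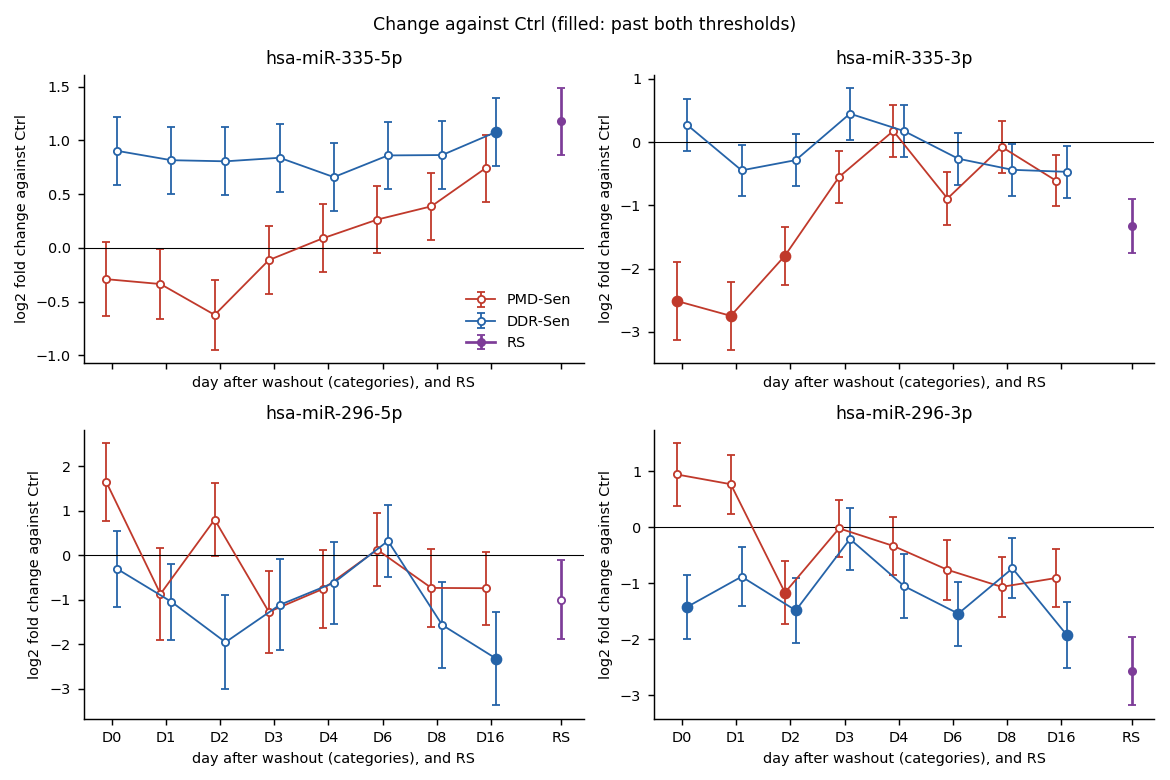
Log2 fold change against Ctrl of the 4 tested arms by day in PMD-Sen and DDR-Sen, and in RS, with bars of 1 SE. Filled symbols passed both thresholds. The days are spaced evenly as categories, and all comparisons share the 2 Ctrl libraries. miR-335-3p is at -2.51, -2.75 and -1.80 on the first 3 PMD-Sen days, and miR-296-3p is below 0 on all DDR-Sen days.

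In DDR-Sen as a whole, miR-335-3p was never called against Ctrl, with log2 fold changes of -0.47 to 0.45. At equal totals it was called up at D0 (1.10, adjusted p = 0.457 by edgeR) and D3 (1.01, adjusted p = 0.232). At D4 the sign of its value (0.17) depended on the scaling, being negative with unscaled totals. In RS the libraries had 57.3 and 126 CPM, both below Ctrl, as were the RS libraries for 27.2% of the 360 miRNAs, and the log2 fold change was -1.32 (SE 0.43, adjusted p = 0.0226 by edgeR). It was -0.78 without RS replicate 1, -0.56 without Ctrl replicate 2 and -0.43 at equal totals, and the call was lost each time, whereas without RS replicate 2 it was -2.07 and the call held. RS was the only condition compared with Ctrl in which the arms of the MEST hairpin were called in opposite directions. That rested on both RS libraries: the 5p value was 0.18 without RS replicate 2, and the 3p value was -0.78 without RS replicate 1. Ordered by mean, miR-335-3p ran from 318 CPM (SD 73.4, n = 2) at DDR-Sen D3 to 34.0 CPM (SD 3.67, n = 2) at PMD-Sen D1, and all 17 pairs of neighbours overlapped.

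The ratio of the arms within a library does not depend on how libraries are scaled. miR-335-5p exceeded miR-335-3p in 36 of 36 libraries, with a median of 6.01 counts of 5p per count of 3p. Ctrl had 4.48 and 2.24. PMD-Sen had 28.0 and 8.83 at D0 and 17.5 and 13.2 at D1, against 4.48 and 3.51 at D8 and 7.47 and 7.35 at D16. The ratio of 28.0 rests on 56 and 2 counts, and its exact 95% interval, which covers counting error only, runs from 7.40 to 237. RS had 13.8 and 17.9, above both Ctrl libraries. DDR-Sen had 3.37 to 7.75 at D0 and D1 and 5.68 to 12.6 at D8 and D16, the later days also above both Ctrl libraries. The median ratio was 15.35 in early PMD-Sen and 15.8 in RS, but lying above Ctrl was not particular to them. The share of all hairpins whose ratio lies apart from Ctrl in this way was not computed.

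Under the rule of at least 10 counts of each arm in every library, only DDR-Sen could be tested, and there the log2 ratio of late over early libraries differed by 0.43 (two-sided exact permutation p = 0.4, n = 4 and 4). Without that minimum, an alternative added after the data were seen, the PMD-Sen ratio fell by 1.37 on the log2 scale. The late and early libraries did not overlap, and how often this happens for other hairpins was not computed. The fall was tested by permutation. Its exact permutation p was 0.0286, the smallest that 4 against 4 libraries can give. After Benjamini-Hochberg adjustment over the 4 hairpin and series combinations it was 0.114, so the fall did not pass. With D6, D8 and D16 set against D1, D2 and D3 the difference was -0.34. Averaged over D1 to D16, PMD-Sen and DDR-Sen differed by -0.07 in the log2 ratio (permutation p = 0.704, series labels permuted within days).

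**Figure D4:**
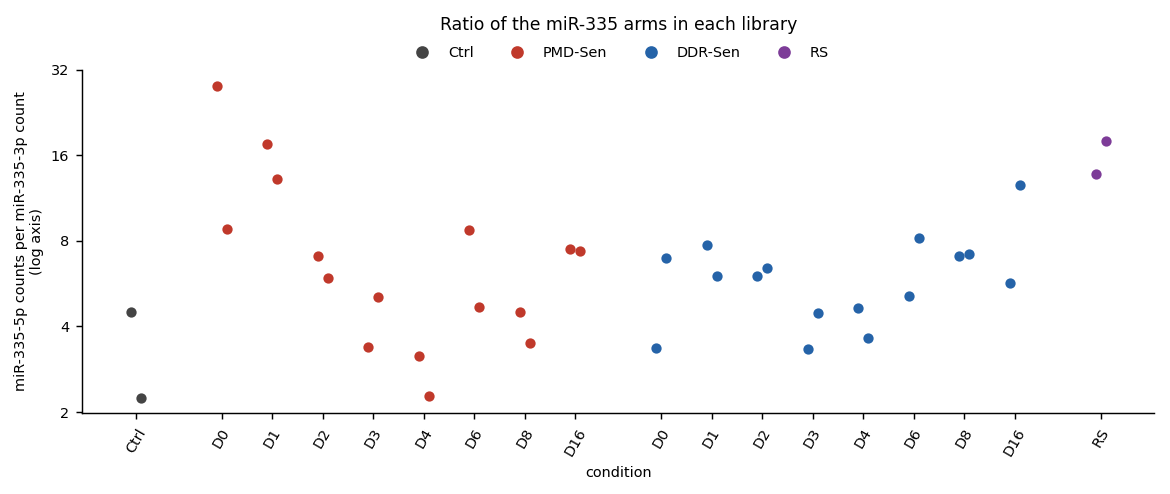
Counts of miR-335-5p per count of miR-335-3p in each of the 36 libraries, on a log axis, in order of condition. The early PMD-Sen libraries (8.83 to 28.0, the highest from 56 and 2 counts) and the RS libraries (13.8 and 17.9) lie above the Ctrl libraries (2.24 and 4.48). The DDR-Sen libraries of D8 and D16 (5.68 to 12.6) do so too.

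miR-296 comes from the GNAS region, and its 5p arm has been studied in blood vessel growth. In these cells the 3p arm was the more abundant, exceeding the 5p arm in 33 of 36 libraries, with 0.276 counts of 5p per count of 3p over all. miR-296-3p had 73.0 and 65.8 CPM in Ctrl. It was lowest in RS, with 9.54 and 12.9 CPM from 4 and 8 counts, both below the Ctrl libraries, a separation shared by the same 27.2% of miRNAs. The log2 fold change in RS was -2.57 (SE 0.61), with an adjusted p of 0.00176 by edgeR, and leaving out single libraries moved it between -2.86 and -2.29.

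Most DDR-Sen libraries held less miR-296-3p than Ctrl. The 16 libraries ranged from 11.5 to 73.3 CPM with a median of 32.1, and 1 library, at D3, lay above the Ctrl libraries. The log2 fold change was below 0 on all 8 days and was called at D0 (-1.42, SE 0.57), D2 (-1.48, SE 0.58), D6 (-1.54, SE 0.57) and D16 (-1.92, SE 0.59). Of the edgeR results the D16 value passed adjustment (adjusted p = 0.0165), while the others had adjusted p of 0.435, 0.233 and 0.0820. At D16 the libraries had 25.9 and 11.5 CPM from 10 and 6 counts. At equal totals the D16 value was -1.85 with an unadjusted p of 0.0563, and none of the 4 calls held. Without single libraries, the D0 value was -1.06 (DDR-Sen replicate 2) and the D2 value -0.95 (DDR-Sen replicate 1), and neither was called.

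PMD-Sen began at the other end. Its D0 libraries had 184 and 78.0 CPM of miR-296-3p from 20 and 7 counts, and its D1 libraries 106 and 132 from 29 and 21. All lay above both Ctrl libraries, as was the case for 8.33% of the 360 miRNAs. The lowest, at 78.0 CPM, was close to the 73.0 CPM of Ctrl replicate 1. The log2 fold changes of 0.94 (SE 0.56) at D0 and 0.77 (SE 0.52) at D1 did not pass. By D8 the libraries had 36.2 and 29.2 CPM and by D16 44.1 and 26.4, all below Ctrl (24.7% of the 360 miRNAs). The single call against Ctrl in this series was at D2 (-1.16, SE 0.57, adjusted p = 0.405 by edgeR), where the libraries had 47.6 and 8.41 CPM from 19 and 2 counts. It was -0.52 without PMD-Sen replicate 2 and -3.09 without replicate 1.

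The late PMD-Sen libraries had 26.4 to 44.1 CPM of miR-296-3p and the early ones 78.0 to 184 CPM, without overlap. The separation downward was found for 13.1% of the 360 miRNAs. The log2 difference was -1.84 (SE 0.38), with an adjusted p of 5.28e-04 by edgeR. With D6, D8 and D16 against D1, D2 and D3 it was -0.77 and did not pass. In DDR-Sen the difference was -0.18 (SE 0.41, adjusted p = 0.782), and the series did not pass the test of the difference between them (-1.66, SE 0.56, adjusted p = 0.0551).

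miR-296-5p was close to the limit of detection, at a median of 4 counts per library and at most 15. Ctrl had 5 and 5 counts (21.5 and 14.3 CPM). It was highest at PMD-Sen D0, with 64.3 and 44.6 CPM from 7 and 4 counts, and the log2 fold change of 1.64 (SE 0.87) did not pass. The call at DDR-Sen D16 came from 0 and 3 counts, which is at the floor of 3 counts per library. With 3 counts set for both libraries, the level was 2.64-fold lower than in Ctrl. That value leaves out counting error and is not a bound. The call had an adjusted p of 0.108 by edgeR. The call was lost without Ctrl replicate 1 or DDR-Sen replicate 1.

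Counted over the 8 time points, the 4 tested arms had 4 calls of 32 in PMD-Sen (12.5%), 0 up and 4 down, where 8.44% of all tests of that series were calls, 4.93% downward. In DDR-Sen there were 6 of 32 (18.8%), 1 up and 5 down, against 9.83% of all tests, 5.9% downward. That split depended on single Ctrl libraries and on depth: it was 0 up and 7 down of 40 tests without Ctrl replicate 1, 3 up and 5 down without Ctrl replicate 2, and 4 up and 0 down of 24 tests with every library thinned to the smallest total. After adjustment 2 calls were left in each series. No share over all tests is given for these alternatives. In RS 3 of the 4 arms were called, where 22.2% of the 360 miRNAs were. These comparisons share the 2 Ctrl libraries and the tested arms are pairs from 2 hairpins, so the counts are not independent of each other.

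PMD-Sen and DDR-Sen were also set against each other from D1 on, in a model that held the day and left out Ctrl, where 284 miRNAs were tested. All 3 of the arms that passed the filter there differed at an adjusted p below 0.05, as did 25.7% of the 284. miR-335-5p was lower in PMD-Sen by -0.77 on the log2 scale (SE 0.12, adjusted p = 2.79e-05 by edgeR). Both PMD-Sen libraries lay below both DDR-Sen libraries on 6 of the 7 days, D16 being the exception, and 4.93% of the 284 miRNAs did so on at least 6 days. The difference was -0.96 to -0.58 when each replicate was left out and passed each time.

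In the same model miR-335-3p differed by -0.60 (SE 0.19, adjusted p = 0.0209) and miR-296-3p, with the opposite sign, by 0.64 (SE 0.21, adjusted p = 0.0253). Both results were less stable. miR-335-3p did not pass without PMD-Sen replicate 1 (-0.59), without PMD-Sen replicate 2 (-0.51) or without DDR-Sen replicate 1 (-0.42). miR-296-3p did not pass without PMD-Sen replicate 1 (0.37) or without either DDR-Sen replicate (0.56 and 0.80). Neither arm separated the series on 6 days: miR-335-3p was lower in PMD-Sen on 3 days and higher on 1, and miR-296-3p was higher on 3. At D16 alone, 0 of the 4 arms were called between PMD-Sen and DDR-Sen, where 4.72% of the 360 miRNAs were called by edgeR. The same held at an unadjusted p below 0.05 and with DESeq2. With 2 libraries in each group, this does not show equal levels. The log2 differences of the arms were -0.34 (SE 0.30) for miR-335-5p, -0.14 (SE 0.40) for miR-335-3p, 1.01 (SE 0.57) for miR-296-3p and 1.59 (SE 1.00) for miR-296-5p.

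In these bulk libraries a lower share of cells that hold a miRNA and less of it per cell cannot be told apart.

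miR-483 lies in an intron of IGF2, the gene of a fetal growth factor. Its arms stayed near the floor. miR-483-3p had 1 and 10 counts in Ctrl, 0 to 5 in a PMD-Sen library, 1 to 9 in a DDR-Sen library and 0 and 0 in RS. It was found in all 16 DDR-Sen libraries and in 10 of the 16 PMD-Sen libraries. In the summed libraries this came to 20.0 CPM (here of the raw summed totals) in Ctrl (exact 95% Poisson interval 9.97 to 35.7), 3.64 in PMD-Sen (2.38 to 5.34) and 6.37 in DDR-Sen (4.64 to 8.52), while RS allows at most 3.47. The Ctrl value rests on the 10 counts of replicate 2. These intervals cover counting error only.

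miR-483-5p had 2 and 2 counts in Ctrl and at most 4 in any library. It was found in 8 of 16 PMD-Sen libraries, where the 4 libraries of D8 and D16 had 0 counts of 3303397, and in 12 of 16 DDR-Sen libraries. Over all libraries it came to 2.59 CPM (1.86 to 3.52), against 5.18 (4.12 to 6.43) for the 3p arm.

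miR-675 was all but absent. Its 5p arm had its 1 count at PMD-Sen D3 (replicate 1) and its 3p arm at DDR-Sen D8 (replicate 1), and the other libraries had 0. Of 15817661 counts in all, 1 count corresponds to 0.0632 CPM, with an upper limit of 0.352. No comparison between conditions was possible at this depth. H19 itself was not measured in these small RNA libraries.

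The miRNAs whose log2 CPM followed the tested arms most closely over the 36 libraries were looked up as a description. For miR-335-5p they were miR-26a-5p (r = 0.858), miR-34a-5p (0.852), which is a target of p53, and miR-30a-5p (0.827). For miR-335-3p they were miR-10a-3p (0.662), miR-10a-5p (0.643) and miR-30c-5p (0.623), and r with its own partner arm was 0.566. For miR-296-3p they were miR-3173-5p (0.711), miR-199b-5p (0.616) and miR-106b-3p (0.604), and for miR-296-5p miR-1260b (0.618), miR-130b-3p (0.561) and miR-1307-3p (0.523). The 2 arms of miR-296 followed each other only at r = 0.162. The points share library depth and condition, and the lowest counts carry most noise.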

How the data were processed

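The authors ligated adapters to small RNA of WI-38 cells, sequenced 36 libraries and processed the reads with exceRpt 4.6.2, mapping to GRCh38 and aligning to miRBase. The authors deposited expected counts without normalization. Reads shared between miRNAs were divided, which left 1003 of 54288 values not whole, and 18 names join several miRNAs, none of them an arm described here. Counts were rounded, filtered with filterByExpr (360 miRNAs kept) and analysed with the quasi-likelihood test of edgeR 4.0.16 (R 4.3.3), using TMM, 18 group means and Benjamini-Hochberg adjustment over all tested miRNAs. The biological coefficient of variation was 20.9%. PMD-Sen and DDR-Sen were compared over D1 to D16 in 28 libraries with day and series (284 miRNAs). The methods name no molecular identifiers, so intervals and the floor of 3 counts cover counting error only. CPM use TMM-scaled totals, and log2 CPM a prior count of 2. Arm ratios use log2 counts with a pseudocount of 0.5 and exact permutation tests.

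All 8 arms are reported, and the members, the lists and the alternatives were chosen with earlier results of these data known. Alternatives were DESeq2 1.42.0, other scalings and filters, adjusted p, thinning to 81670 counts (1 random draw), a replicate block, fewer libraries, other days and leaving out each replicate. The procedure was tested on simulated data. The mRNA data, qPCR and transfections of the study were not used here.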

Additional observations from a re-analysis of the deposited data

Results flagged for a closer look

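miR-335-3p was singled out because its change from early to late days differed between the series in a direct test. The late against early log2 difference was 2.29 (SE 0.40) in PMD-Sen and -0.36 (SE 0.29) in DDR-Sen, and the difference between them was 2.65 (SE 0.50), with an adjusted p of 0.00360 by edgeR. All 4 late PMD-Sen libraries lay above all 4 early ones, as they did for 13.9% of the 360 miRNAs. The early PMD-Sen values rest on 2, 6, 10 and 5 counts. With every library thinned to the smallest total the difference was 3.00, and with D16 alone set against D0 alone it was 2.64 (adjusted p = 0.0842) and did not pass. The part of library depth and of any other cause in this result was not tested beyond the thinning. Groups of 2 libraries are too small for a search for single outlying samples.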

How the results depend on the processing

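Of 20 called values, 156 of 173 alternative values kept direction and call, 17 lost the call and 0 changed sign. With a replicate left out, 54 of 74 kept the call, 20 lost it and 0 changed sign. The number of calls of the tested arms in PMD-Sen against Ctrl was 4, but 9 without a low-count filter (all 8 arms tested), 2 at adjusted p, and 2 to 10 when a replicate was left out (10 without Ctrl replicate 1, 9 without PMD-Sen replicate 1, 2 without Ctrl replicate 2); the fits with 10 and 9 calls made 40 tests in place of 32. In DDR-Sen it was 6, but 2 at adjusted p and 4 after thinning, where all 4 were up in place of 1 up and 5 down. At D16 between the series it was 0, but 1 in a fit of only the 4 libraries and 0 to 1 with a replicate left out. Over D1 to D16 it was 3, but 1 after thinning, and 1 to 2 with a replicate left out (1 without replicate 1 of either series). The difference of the late against early change had 1 call, but 2 with total counts, without a filter, with a mean of at least 10 counts, with DESeq2 and with the replicate block, and 0 for D16 against D0. The log2 arm ratio of miR-296 in DDR-Sen was -1.18, but 0.54 with D6, D8 and D16 against D1, D2 and D3; neither passed. Shares over all tested miRNAs are given for the reported fits only, so the counts of calls under these alternatives stand without a background. Where no value above shows why, the cause was not tested. Over 153 pairs of groups the correlation of the replicates' deviations ran from -0.458 to 0.366, with 53 over 0.1 and 35 under -0.1. These pairs mix the series, so a replicate effect within 1 series was not tested. In PMD-Sen, miR-335-5p was higher in replicate 1 at each time point from D1 on and lower at D0. The replicate block changed no other count of calls. Total counts in place of TMM moved the median of all miRNAs by -0.26 at DDR-Sen D4 and by 0.16 between the series, beside which the changes are to be read. Neither arm of miR-483 or miR-675 passed the low-count filter of the fit reported, and each leave-one-out fit assumes that a lone library varies like the other groups.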

Other observations

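Other imprinted miRNAs were counted for comparison. Of the primate-specific cluster on chromosome 19 (C19MC), expressed mainly in placenta, 5 names were listed, miR-1323 with 9 counts over all libraries, miR-516b-5p with 5, miR-518b with 4, miR-522-3p with 2 and miR-518f-3p with 1, and 0 passed the low-count filter. No row for miR-298, the neighbour of miR-296, was among those analysed here.

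The 14q32 cluster, imprinted like the hairpins above, was far better represented, with 90 names of which 68 were tested. At PMD-Sen D16, 11 were called up and 0 down (median log2 fold change 0.66, against 0.05 over all 360 miRNAs). Of all miRNAs, 6.67% were called up there and 10.3% down. At DDR-Sen D16 it was 14 up and 1 down (median 0.63, all miRNAs -0.03), where 8.33% of all were called up and 13.1% down. In RS it was 14 up and 1 down (median 0.52, all miRNAs 0.12), where 8.89% were called up and 13.3% down. In late against early PMD-Sen, 24 of the 68 were higher and 0 lower, with a median of 0.60 (all 360 miRNAs 0.0055). Of all miRNAs, 14.4% were called higher there and 17.5% lower. The arms of miR-335 had 0.88 and 2.29, whereas miR-296-3p had -1.84. In DDR-Sen 25 were higher and 0 lower, with a median of 0.51 (all 360 miRNAs 0.07), where 11.9% were called higher and 13.3% lower. There 0 of the 4 tested arms of miR-335 and miR-296 were called, by edgeR at adjusted or unadjusted p below 0.05 or by DESeq2.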
